A study of Mus musculus with 57 samples.

Results

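Hspa5, Dnajb9, Sdf2l1, Herpud1, Hsp90b1, Pdia4, Creld2, Manf, Hyou1 and Xbp1 are 10 genes of protein folding and quality control in the endoplasmic reticulum. They were chosen by symbol, through the Ensembl gene IDs of the count table, and not by their values. All 10 were found among 54307 genes in the table and all 10 passed the filter on low counts in every comparison. The group is called endoplasmic reticulum chaperones here, although Herpud1 works in degradation and Xbp1 encodes a transcription factor. The endoplasmic reticulum is where secreted and membrane proteins fold. When unfolded proteins build up there, the sensors IRE1, PERK and ATF6 start the unfolded protein response, which raises the transcription of chaperones, disulfide isomerases and degradation factors. The hepatocyte secretes most plasma proteins and therefore holds much rough endoplasmic reticulum.

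The livers came from 57 wild-type male C57BL/6JJcl mice. The mice were 6 weeks old, were acclimatised for 1 week, fasted for 12 h, and killed 24 h after a single administration. Control mice were fasted too. Alpha-naphthyl isothiocyanate (ANIT, a toxicant of bile ducts, 4 mice), acetaminophen (APAP, 6 mice), 4,4'-methylene dianiline (MDA, 7 mice) and thioacetamide (TAA, 5 mice) were given by gavage, and their control was 0.5% methylcellulose by gavage (13 mice). Carbon tetrachloride (CCl4, 7 mice) and galactosamine (GAL, 4 mice) were injected intraperitoneally, with 0.9% saline by that route as control (2 mice). The plant lectin concanavalin A (ConA, 7 mice) was injected into the tail vein, with 0.9% saline by that route as control (2 mice). Corn oil is listed among the vehicles without saying for which compound, and no control mouse received it, so a compound dissolved in it and the oil cannot be told apart. Each compound was set against the vehicle of its own route and, as a second comparison, against all 17 vehicle mice, which mix routes. Separate animals were numbered in each group, so the p-values measure the spread between these mice.

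RNA was poly(A)-selected and sequenced single-end, and the deposited values are estimated counts per gene. The total per liver ranged from 13826343 to 35075809, with 5.11% to 39.3% of it from mitochondrial genes, highest in ConA livers (14.6% to 39.3%). Levels below are CPM, the field's unit of estimated counts relative to the library total, after scaling by trimmed mean of M values (TMM), and differences are log2 fold changes with a standard error (SE). A gene is called higher or lower when its Benjamini-Hochberg adjusted p from edgeR's quasi-likelihood test was under 0.05. Hepatocyte markers (all 6 of 6 in the table) summed to 53821 to 120759 CPM in the gavage vehicle group, to 20987 to 31527 CPM after CCl4 and to 28911 to 36740 CPM after GAL. Sinusoidal endothelial markers were at 71.0 to 99.6 CPM in CCl4 livers, below all 17 vehicles (104 to 189 CPM), and monocyte markers at 62.2 to 117 CPM in GAL livers, above all 17 (8.99 to 60.7 CPM). Pancreatic acinar markers (5 of 5) summed to 195.8 CPM in intraperitoneal saline mouse 8, against 23.9 to 42.8 CPM in the other 16 vehicle livers, and its T cell marker sum was the highest of the 17 (13.6 CPM). This mouse is 1 of only 2 controls of that route for CCl4 and GAL. Without it 1 control is left, and Dnajb9 gave 0.75 and Hsp90b1 1.71 after CCl4. After GAL Hsp90b1 gave -1.61 and Creld2 -1.47 without it, and -1.54 and -0.92 without the other saline mouse. Calls lost without either mouse are given by gene below. The part of such cells in the levels was not tested. In whole liver, fewer cells of a type and less RNA per cell cannot be told apart.

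Promoters are shown because the chaperone genes are the textbook targets of ATF6 and XBP1, which bind the endoplasmic reticulum stress element (ERSE), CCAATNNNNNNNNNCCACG, and its short form ERSE-II, which is ATTGG and CCACG with 1 base of any kind between them. RefSeq promoters of 300 bases (250 before the start and 50 from it) on the GRCm38.p6 assembly were matched for 8 of the 10 genes, all but Manf and Hyou1. The submitters' processing notes name GRCm39 without its role, and the positions here hold for the older assembly only. On either strand, the exact ERSE was in 39 of 32851 promoters (0.119%) and in those of Hspa5, Creld2 and Hsp90b1, which held 2. With the last base left free (CCAATNNNNNNNNNCCACN, which includes the exact form) it was in 120 promoters (0.365%), Pdia4 and Herpud1 among them. ERSE-II was in 12 promoters (0.0365%), Herpud1 among them. The XBP1 site TGACGTGG was in 222 promoters (0.676%) and in none of the 8. ERSE-II and the exact ERSE both end in CCACG, which 32.8% of promoters hold. The windows of Dnajb9 and Sdf2l1 held CCACG and no longer match, and that of Xbp1 held none of these motifs. Printed 5′ to 3′, with the matched letters in capitals:

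Hspa5 promoter, chr2:34771840-34772139, + strand: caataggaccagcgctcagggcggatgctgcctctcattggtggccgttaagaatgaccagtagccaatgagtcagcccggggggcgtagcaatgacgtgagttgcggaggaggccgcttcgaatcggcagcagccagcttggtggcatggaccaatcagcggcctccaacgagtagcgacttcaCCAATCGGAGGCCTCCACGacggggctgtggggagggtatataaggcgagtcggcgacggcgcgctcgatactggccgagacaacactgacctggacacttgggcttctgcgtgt

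Hsp90b1 promoter, chr10:86705395-86705694, - strand: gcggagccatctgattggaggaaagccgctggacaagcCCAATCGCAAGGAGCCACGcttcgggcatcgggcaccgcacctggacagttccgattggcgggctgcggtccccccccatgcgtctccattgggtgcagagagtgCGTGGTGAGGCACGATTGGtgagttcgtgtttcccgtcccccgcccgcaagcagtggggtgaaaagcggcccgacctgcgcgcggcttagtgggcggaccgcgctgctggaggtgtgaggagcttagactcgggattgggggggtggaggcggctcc

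Creld2 promoter, chr15:88819396-88819695, + strand: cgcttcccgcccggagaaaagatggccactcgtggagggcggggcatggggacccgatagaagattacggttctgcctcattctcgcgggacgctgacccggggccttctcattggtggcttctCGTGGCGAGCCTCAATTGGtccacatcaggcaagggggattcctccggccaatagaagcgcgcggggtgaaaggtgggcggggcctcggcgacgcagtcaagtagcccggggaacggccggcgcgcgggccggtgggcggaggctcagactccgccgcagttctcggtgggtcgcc

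Herpud1 promoter, chr8:94386179-94386478, + strand: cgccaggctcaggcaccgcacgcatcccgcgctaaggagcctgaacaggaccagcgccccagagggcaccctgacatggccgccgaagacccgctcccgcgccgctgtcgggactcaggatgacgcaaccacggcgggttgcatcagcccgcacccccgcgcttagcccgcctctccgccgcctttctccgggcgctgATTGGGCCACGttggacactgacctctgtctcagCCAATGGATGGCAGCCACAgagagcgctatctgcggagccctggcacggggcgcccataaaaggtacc

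Counting the start base as 0, the Hspa5 element lies at -65 to -47, and the Hsp90b1 elements lie at -212 to -194 and, on the opposite strand, at -107 to -89. The Creld2 element is on the opposite strand at -126 to -108. In Herpud1 the ERSE-II match is at -52 to -42 and the looser ERSE match at -18 to 0. A match of letters is a description and was not tested as a binding site.

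The comparisons with the route vehicle are given first by compound. After ANIT all 10 were called higher, by 0.96 to 1.76 on the log2 scale, beside 14% of all 14072 genes called higher and 14.2% lower. Their median difference was 1.32, against -0.01 for all genes tested. After APAP 7 were called higher (17.3% of 13939 genes, with 14.6% lower), with a median of 1.04 against 0.07 for all genes. Without APAP mouse 1 the median was 0.43. After MDA 2 of the 10 were called higher, Hsp90b1 and Xbp1 (17.4% of 13522 genes, with 16.4% lower). Their median after MDA was 0.27 against 0.03.

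After TAA Hspa5 and Xbp1 were called higher, 2 of 10 beside 26.4% of 14360 genes, and Sdf2l1, Herpud1, Pdia4 and Hyou1 lower, 4 of 10 beside 24%. The calls of Herpud1 and Pdia4 were each lost without single TAA mice. The median of the 10 after TAA was -0.14 against 0.03. After CCl4 8 were called higher (18% of 15365 genes) and Herpud1 lower (15.6% of genes), with a median of 1.26 against 0.10. All 7 CCl4 livers exceeded both saline livers in those 8 genes, as in 22.5% of all genes, and lay below both in Herpud1, as in 18.4%. After GAL 7 were called lower (15.7% of 15509 genes, with 12.8% higher) and the median was -1.64 against 0.08. By edgeR none of the 10 was higher after GAL, also at an unadjusted p under 0.05, and DESeq2 called none higher either. After ConA 4 were called higher, Hspa5, Creld2, Manf and Xbp1 (16.8% of 14132 genes, with 17.3% lower), with a median of 1.12 against 0.03.

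The second comparison used all 17 vehicle livers. ANIT called all 10 genes higher (13.5% of all genes, with 14.5% lower). APAP called 8 higher (18.1%, with 15.3% lower) and MDA 2 (17.2%, with 17.1% lower). TAA called 2 higher and 3 lower (25.2% and 24.5% of genes), and CCl4 called 8 higher and 1 lower (26.2% and 27.2%). GAL called 9 lower, all but Dnajb9, and 0 higher (27.5% and 25.1% of genes). ConA called 5 higher and 2 lower (34.3% and 33.7%). Hsp90b1 joined the genes called higher after ConA, and Sdf2l1 and Pdia4 were called lower. Every treated liver lay above all 17 vehicles in 6 of the 10 genes after CCl4 (9.42% of all genes), in Hspa5 and Xbp1 after ConA (12.4%), in Hspa5 after TAA (9.03%) and in Xbp1 after ANIT (3.19%). Every liver lay below all 17 in Sdf2l1, Herpud1, Pdia4 and Manf after GAL (13% of all genes) and in Pdia4 after ConA (14.3%).

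Hspa5 encodes BiP, the Hsp70 chaperone of the endoplasmic reticulum that also holds the stress sensors inactive. In gavage vehicle livers it ranged from 175 to 479.6 CPM with a median of 319. The intraperitoneal saline livers had 315 and 234 CPM and the intravenous ones 174 and 239. Its level was high in most injured livers. The lowest group mean was that of GAL, whose difference from the route vehicle was not called. The 4 ANIT livers had 390.1, 869, 1453 and 755 CPM, of which mouse 1 lay within the vehicle range. The 5 TAA livers had 684, 533, 1006, 1023 and 859 CPM, all above every vehicle liver. CCl4 livers ranged from 857 to 1532 CPM (median 1057) and ConA livers from 743 to 1842 CPM (median 1357), and both groups also lay wholly above the vehicles. APAP livers ranged from 324 to 3164 CPM (median 504), MDA livers from 304 to 537 CPM (median 419), and both overlapped the controls. The GAL livers had 149.8, 224, 238 and 187 CPM, below or within the range of the vehicles.

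Against the route vehicle Hspa5 rose by 2.63 ± 0.39 (log2, SE) after ConA (adjusted p = 0.000792) and by 2.00 ± 0.24 after CCl4 (adjusted p = 0.000243). The rise was 1.59 ± 0.38 after APAP (adjusted p = 0.00304), 1.39 ± 0.25 after ANIT (adjusted p = 0.000567) and 1.36 ± 0.19 after TAA (adjusted p = 8.19e-06). Without APAP mouse 1 the APAP difference was 0.60 (adjusted p = 0.0472). MDA gave 0.29 ± 0.17 (adjusted p = 0.186) and GAL -0.52 ± 0.26 (adjusted p = 0.167), neither past the threshold. Against all 17 vehicles GAL gave -0.67 ± 0.23 (adjusted p = 0.018). That call was lost without GAL mouse 2 or 8 (adjusted p = 0.11 and 0.0818), and the direction turned to 0.17 when libraries were scaled by their total alone. In order of mean level the groups ran from GAL (199.8 ± 39.7 CPM, SD, n = 4) to ConA (1275 ± 383 CPM, n = 7). Of 9 steps between neighbours in that order, the step from MDA to TAA exceeded the spread (adjusted p = 0.0225, edgeR).

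Dnajb9 encodes ERdj4, an Hsp40 cochaperone of BiP. In gavage vehicle livers it was the least abundant of the 10, with 8.26 to 42.5 CPM (median 24.5), a statement that rests on values that look corrected for gene length. After GAL the mean of Dnajb9 (25.2 CPM) lay above those of Sdf2l1 (8.99 CPM), Creld2 (17.2 CPM) and Pdia4 (21.3 CPM). ANIT livers had 29.6, 72.4, 122 and 68.2 CPM, again with mouse 1 inside the vehicle range. CCl4 livers ranged from 34.6 to 59.2 CPM (median 51.9), above both saline livers (29.4 and 12.5 CPM). Dnajb9 rose by 1.61 ± 0.34 after ANIT (adjusted p = 0.00188) and by 1.22 ± 0.32 after CCl4 (adjusted p = 0.0154). The CCl4 call was lost without intraperitoneal saline mouse 8 (0.75, adjusted p = 0.121). The other 5 differences lay between 0.20 and 0.87 and were not called. After GAL it stood at 8.51, 29.9, 37.5 and 24.8 CPM, and Dnajb9 was the single gene of the 10 that was not lower after GAL against all vehicles (0.12 ± 0.36, adjusted p = 0.809).

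Sdf2l1 encodes a partner of these Hsp40 proteins in the BiP cycle. It ranged from 31.2 to 79.5 CPM in gavage vehicle livers (median 44.3). CCl4 livers lay at 141 to 199.9 CPM (median 160.4), above all 17 vehicles, while the GAL livers had 13.2, 6.98, 7.96 and 7.79 CPM, below all 17. CCl4 and GAL livers differed by 4.21 ± 0.36 (log2, adjusted p = 3.72e-13, edgeR fit over 10 groups). Sdf2l1 rose by 1.70 ± 0.16 after CCl4 (adjusted p = 6.26e-05), by 1.22 ± 0.24 after APAP (adjusted p = 0.00071) and by 0.96 ± 0.27 after ANIT (adjusted p = 0.0117). The ANIT call was lost without ANIT mouse 3 (0.69, adjusted p = 0.109). It fell after GAL by 2.54 ± 0.27 on the log2 scale (adjusted p = 0.0026). The 5 TAA livers had 35.2, 33.9, 28.5, 28.1 and 24.4 CPM, and TAA gave -0.66 ± 0.20 (adjusted p = 0.0102). After ConA it gave 0.32 ± 0.41 against the 2 intravenous saline livers (34.2 and 15 CPM; adjusted p = 0.573) but -0.52 ± 0.22 against all vehicles (adjusted p = 0.0393), a call lost without ConA mouse 2, 4, 5, 8 or 11 (adjusted p = 0.0551 to 0.0846). The same 7 ConA livers, at 21.3 to 54.4 CPM (median 28.6), entered both comparisons.

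Hyou1 encodes the large Hsp70-like protein that exchanges nucleotide on BiP. Gavage vehicle livers had 59.7 to 135 CPM (median 87.1). ANIT livers had 70.6, 232, 369.6 and 174 CPM and CCl4 livers 173 to 219 CPM (median 195). The CCl4 livers lay above all 17 vehicles and had a narrow spread (SD 18.7 CPM). Hyou1 rose by 1.15 ± 0.27 after ANIT (adjusted p = 0.0045) and by 1.16 ± 0.13 after CCl4 (adjusted p = 0.000149). Without ANIT mouse 3 the ANIT difference was 0.73 (adjusted p = 0.075). Hyou1 fell after GAL by 1.71 ± 0.24 on the log2 scale (adjusted p = 0.00488), with livers at 38.4, 23.1, 21.8 and 27.2 CPM. TAA gave -0.58 ± 0.18 (adjusted p = 0.00987), a call that was lost against all 17 vehicles (-0.49, adjusted p = 0.0654). APAP gave 0.63 ± 0.26, not called against gavage vehicle (adjusted p = 0.0675), and 0.73 against all vehicles (adjusted p = 0.0303). Without APAP mouse 1 these differences were 0.22 and 0.32, neither called. Against all vehicles the call was also lost without APAP mouse 2 (adjusted p = 0.0528), and against gavage vehicle Hyou1 was called without APAP mouse 8 or 11 (0.74 and 0.79).

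**Figure D1:**
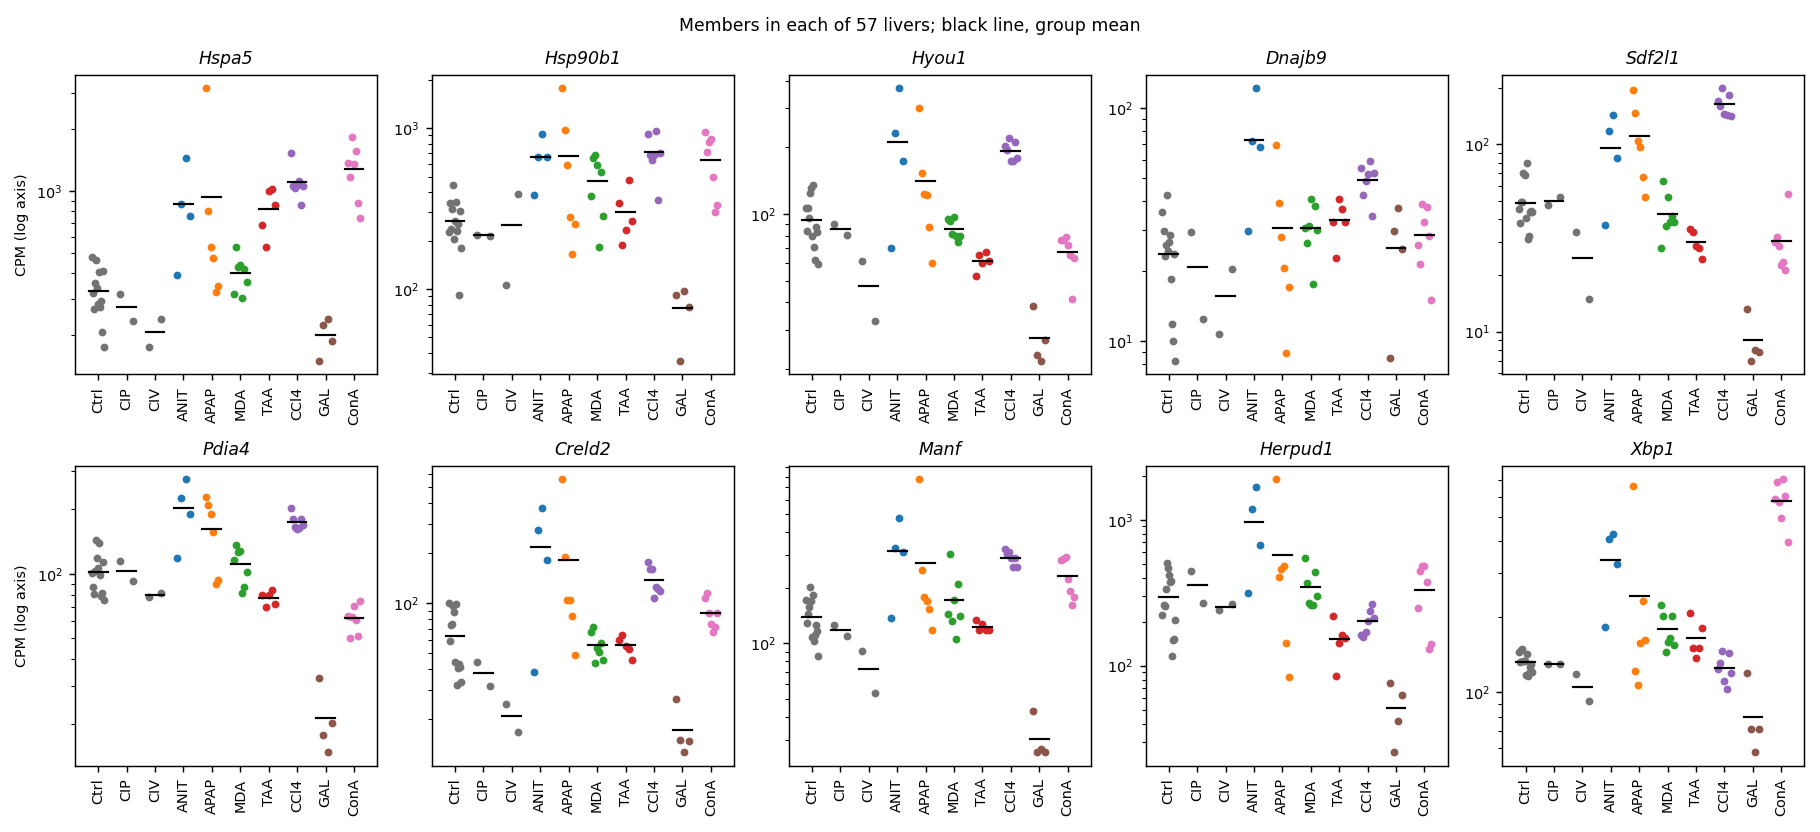
Level of each of the 10 genes in each of the 57 livers (CPM, log scale), by group, with group means. GAL livers are the lowest group for Sdf2l1, Pdia4 and Manf, and 1 APAP liver stands far above the other 5 for Hspa5, Herpud1 and Xbp1.

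Hsp90b1 encodes GRP94, the Hsp90 chaperone of the endoplasmic reticulum. Gavage vehicle livers had 91.9 to 443 CPM (median 254) and the 2 intravenous saline livers 107 and 392 CPM. ANIT livers had 383, 663, 922 and 664 CPM, CCl4 livers 357 to 963 CPM (median 683) and MDA livers 181 to 677 CPM (median 533). Each of these groups overlapped the gavage vehicles. Hsp90b1 rose by 1.31 ± 0.26 after ANIT (adjusted p = 0.00126), 1.41 ± 0.38 after APAP (adjusted p = 0.0074) and 0.84 ± 0.25 after MDA (adjusted p = 0.0113). CCl4 gave 1.70 ± 0.35 (adjusted p = 0.0051), a call lost without intraperitoneal saline mouse 8 (1.71, adjusted p = 0.0524). After ConA the 7 livers at 301 to 949 CPM gave 1.36 ± 0.59, not called against 2 controls (adjusted p = 0.0989), and 1.39 ± 0.24 against 17 (adjusted p = 1.6e-05). Without intravenous saline mouse 8, the control at 392 CPM, the difference was 2.59 (adjusted p = 0.0341). It fell after GAL by 1.57 ± 0.38 on the log2 scale (92.2, 35.8, 97.4 and 77.6 CPM; adjusted p = 0.0251), a call that was lost at about the same size without either saline liver (-1.54 and -1.61, adjusted p = 0.109 and 0.113) or GAL mouse 8 (-1.58, adjusted p = 0.0664).

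Pdia4 encodes ERp72, a protein disulfide isomerase. Gavage vehicle livers had 75.8 to 143 CPM (median 101). ANIT livers had 118, 226, 275 and 191 CPM and CCl4 livers 161 to 203 CPM (median 168), the latter above all 17 vehicles. GAL livers had 32.6, 17.7, 14.8 and 20.2 CPM and ConA livers 50.4 to 74.9 CPM (median 63.1), both below all 17. Pdia4 rose by 0.98 ± 0.18 after ANIT (adjusted p = 0.000806), 0.74 ± 0.13 after CCl4 (adjusted p = 0.00246) and 0.70 ± 0.19 after APAP (adjusted p = 0.00922). It fell after GAL by 2.36 ± 0.30 on the log2 scale (adjusted p = 0.00392). ConA gave -0.35 ± 0.19 against its route vehicle (adjusted p = 0.191) and -0.60 ± 0.13 against all vehicles (adjusted p = 0.000177). TAA gave -0.36 ± 0.14 (adjusted p = 0.041), a call that was lost without any 1 of 4 TAA mice (3, 6, 7 or 8, adjusted p = 0.0532 to 0.0954).

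Creld2 and Manf encode small proteins that are resident in the endoplasmic reticulum and secreted under stress. Creld2 ranged from 32 to 100.3 CPM in gavage vehicle livers (median 59.3) and stood at 44.3 and 31.5 CPM in intraperitoneal and 24.8 and 16.7 CPM in intravenous saline livers. ANIT livers had 38.2, 276, 373 and 181 CPM, the first of them within the vehicle range. CCl4 livers had 107 to 176 CPM (median 124), above all 17 vehicles. Creld2 rose by 1.76 ± 0.38 after ANIT (adjusted p = 0.00225), 1.58 ± 0.39 after APAP (adjusted p = 0.00458) and 1.85 ± 0.25 after CCl4 (adjusted p = 0.000441). ConA livers at 66.9 to 114 CPM (median 87.1) gave 2.08 ± 0.31 against intravenous saline (adjusted p = 0.000796) and 0.74 ± 0.27 against all vehicles (adjusted p = 0.0165). Among the 10 it had the widest gap between gavage and intravenous saline (1.58 on the log2 scale), which did not pass the threshold. GAL gave -1.22 ± 0.31 (26.3, 14.9, 12.6 and 14.7 CPM; adjusted p = 0.0311). That call was lost without GAL mouse 4, 7 or 8 or either saline mouse (adjusted p = 0.0655 to 0.185), and held against all vehicles (-1.75, adjusted p = 0.00107).

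Manf ranged from 85.2 to 202 CPM in gavage vehicle livers (median 129). CCl4 livers had 258 to 325 CPM (median 292), above all 17 vehicles, and GAL livers had 43.2, 25.9, 26.7 and 25.8 CPM, below all 17. ConA livers ranged from 162 to 295 CPM (median 223) and lay above their 2 controls (90.7 and 53.9 CPM), as in 19.5% of all genes. Manf rose by 1.69 ± 0.34 after ConA (adjusted p = 0.004), 1.29 ± 0.13 after CCl4 (adjusted p = 8.25e-05), 1.17 ± 0.23 after ANIT (adjusted p = 0.00122) and 1.04 ± 0.31 after APAP (adjusted p = 0.0139). It fell after GAL by 2.03 ± 0.24 on the log2 scale (adjusted p = 0.0033). The 5 TAA livers lay at 118 to 134 CPM, close to the vehicle median, and gave -0.13 ± 0.17 (adjusted p = 0.537).

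Herpud1 encodes HERP, a membrane protein that helps assemble the complex for endoplasmic reticulum associated degradation. Its promoter differs from the other printed ones in holding ERSE-II. Gavage vehicle livers ranged from 117 to 507 CPM (median 259.6). They stood apart by mouse number, at 377 to 507 CPM in the 5 mice numbered 7 to 12, 223 to 333 CPM in mice 1 to 4 and 117 to 204 CPM in mice 15 to 18, and no treated gavage mouse has a number above 12. Against the vehicle mice numbered up to 12 alone, an alternative chosen after seeing the data, Herpud1 gave 1.42 ± 0.32 after ANIT (adjusted p = 0.00533), -1.18 ± 0.24 after TAA (adjusted p = 0.000764) and 0.77 ± 0.50 after APAP (adjusted p = 0.267). What the numbers stand for is not given in the labels. ANIT livers had 315, 1176, 1682 and 675 CPM, the 3 highest above all vehicles. Herpud1 rose after ANIT by 1.69 ± 0.36 (adjusted p = 0.00217) and after no other compound by the test. APAP gave 1.03 ± 0.46 (adjusted p = 0.0926), and 0.089 without APAP mouse 1. Without APAP mouse 8 or 11 it was called higher (1.24 and 1.26, adjusted p = 0.0483 and 0.0325). GAL livers, at 76, 25.5, 41.9 and 62.8 CPM, were below all 17 vehicles and gave -2.87 ± 0.43 (adjusted p = 0.00604).

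After TAA the 5 livers had 218, 84.4, 143, 163 and 154 CPM, and Herpud1 fell by 0.91 ± 0.32 on the log2 scale (adjusted p = 0.0231), a call lost without TAA mouse 3 or 6 (adjusted p = 0.0729 and 0.054). After CCl4 it went against the other chaperones: 158 to 266 CPM (median 204), below both saline livers (447 and 268 CPM). The difference was -0.84 ± 0.23 (adjusted p = 0.0189). It was not called without intraperitoneal saline mouse 7 (-0.44, adjusted p = 0.293) nor with scaling by library total, and against all 17 vehicles it was -0.60 ± 0.24 (adjusted p = 0.0337), a call lost without CCl4 mouse 1, 5, 6, 8 or 12 (adjusted p = 0.0535 to 0.0815). In the fit over 10 groups ANIT and CCl4 livers differed in Herpud1 by 2.24 ± 0.47 (adjusted p = 0.0002) and in Hspa5 by an amount that was not called.

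Xbp1 encodes the transcription factor that IRE1 activates by splicing its mRNA. Counts per gene do not separate spliced from unspliced Xbp1. Vehicle livers were close together, at 116 to 148 CPM by gavage (median 132), 129 and 129.9 CPM by intraperitoneal and 118 and 92 CPM by intravenous saline. ConA livers lay at 397 to 705 CPM (median 591) and ANIT livers at 182, 409, 428 and 325 CPM, both above all 17 vehicles. Xbp1 rose by 2.48 ± 0.30 after ConA (adjusted p = 0.000244) and by 1.34 ± 0.14 after ANIT (adjusted p = 3.39e-06). Smaller rises were 0.94 ± 0.28 after APAP (adjusted p = 0.0135), 0.45 ± 0.09 after MDA (adjusted p = 0.000406) and 0.37 ± 0.10 after TAA (adjusted p = 0.00401). The MDA and TAA calls were lost when all 10 groups shared 1 estimate of the spread (adjusted p = 0.0997 and 0.269).

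After CCl4 Xbp1 did not move with the chaperones: 103 to 146 CPM (median 124) gave -0.07 ± 0.13 against its route vehicle (adjusted p = 0.732). Against all vehicles the difference, below 0 with TMM, turned to 0.47 (adjusted p = 0.000125) with scaling by library total. GAL livers had 119.6, 71.3, 57.7 and 71.5 CPM. They gave -0.77 ± 0.27 against 2 controls (adjusted p = 0.0784) and -0.75 ± 0.13 against 17 (adjusted p = 6.85e-05). The latter turned to 0.11 with scaling by library total. Xbp1 was 2.20 ± 0.24 lower after CCl4 than after ConA (log2, adjusted p = 9.7e-11), although Hspa5 in these groups did not differ beyond the spread (0.20 ± 0.32, adjusted p = 0.639).

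In the fit over all 10 groups, 21 pairs of compounds were compared for each gene. Pdia4 differed in 16 pairs, Sdf2l1 and Hyou1 in 15, Creld2 in 14, Xbp1 in 13 and Herpud1 in 12. Manf differed in 11, Hspa5 in 10, Hsp90b1 in 8 and Dnajb9 in 5. The share of all genes called in a pair ran from 0.24% (ANIT against MDA) to 49.4% (CCl4 against ConA). GAL was on the lower side of every called pair it was in, for all 10 genes. Between neighbours in the order of group means, 9 of 90 steps were called. Where such a called step joined 2 compounds, 16.5% to 44.1% of all genes were called between them. The vehicle groups themselves gave no called difference in 20 tests of gavage against saline (edgeR, 4 at an unadjusted p under 0.05), where 0.154% of all genes were called between gavage and intraperitoneal saline and 0.00532% between gavage and intravenous saline.

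The balance between the genes was also described within each liver by 2 log2 ratios. They were chosen after the values were seen, so they are given without a test. The log2 ratio of Hspa5 to Pdia4 was 1.59 ± 0.28 (SD, n = 17) in vehicle livers. It was 4.31 ± 0.51 after ConA (n = 7) and 2.65 ± 0.21 after CCl4 (n = 7), and all 7 livers of each group exceeded every vehicle. It was 3.38 ± 0.33 after TAA, with 5 of 5 livers above every vehicle, and 3.27 ± 0.79 after GAL, with 3 of 4 above. ANIT livers had 2.01 ± 0.28 (n = 4), MDA livers 1.85 ± 0.25 (n = 7) and APAP livers 2.09 ± 0.85 (n = 6). The APAP mean lay 0.50 above that of the vehicles, and 0.16 above it without APAP mouse 1.

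The log2 ratio of Xbp1 to Hspa5 was -1.21 ± 0.38 (SD, n = 17) in vehicle livers. It was -3.13 ± 0.36 after CCl4, with 7 of 7 livers below every vehicle, and -2.29 ± 0.53 after TAA, with 4 of 5 below. It was -1.10 ± 0.40 after ConA (n = 7), where both genes were above all vehicles. APAP livers had -1.74 ± 0.84 (n = 6), 3 of them below every vehicle and 1 above.

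**Figure D2:**
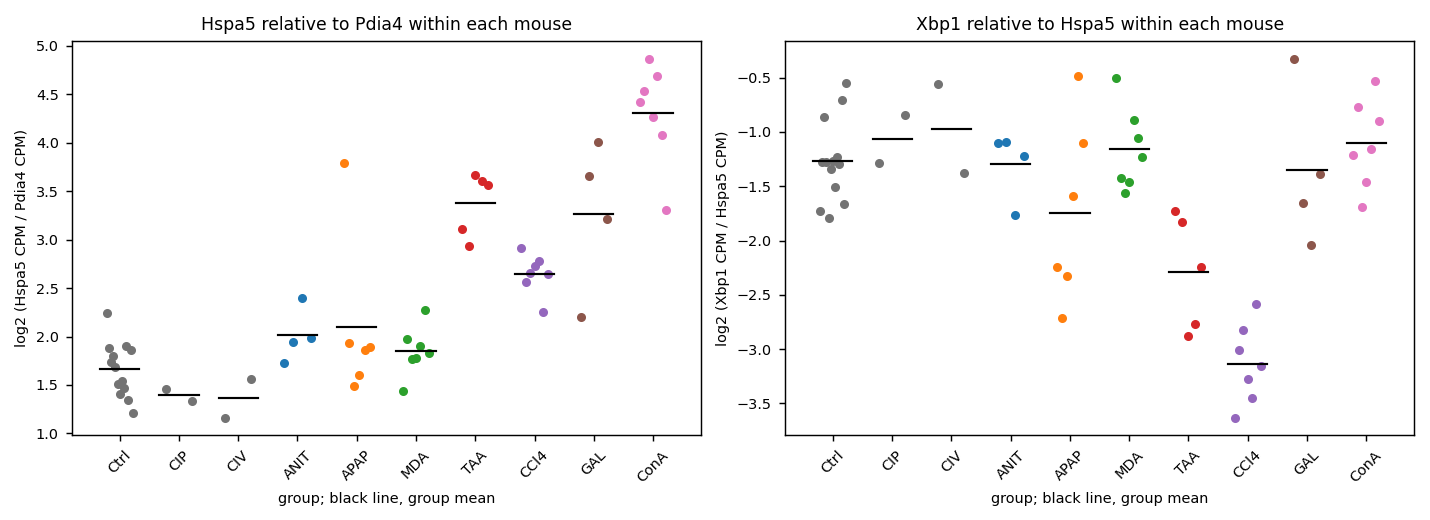
Log2 ratio of Hspa5 to Pdia4 (left) and of Xbp1 to Hspa5 (right) in each liver, by group, with the group mean as a line. ConA livers reach the highest ratios of Hspa5 to Pdia4 (mean 4.31), and CCl4 livers the lowest ratios of Xbp1 to Hspa5 (mean -3.13).

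In 2 groups the same mouse was highest for all 10 genes. In ANIT livers mouse 3 was highest and mouse 1 lowest in 10 of 10 genes. Hepatocyte markers in ANIT mouse 1 summed to 109369.9 CPM against 60751 to 68683 CPM in the other 3, mouse 3 being the lowest, and monocyte markers to 38.6 CPM against 15.2 to 21.0 CPM. In APAP livers mouse 1 was highest in 10 of 10. Hspa5 was at 3164, 796, 535, 472, 324 and 347 CPM in APAP mice 1, 2, 4, 6, 8 and 11. Herpud1 in the same order was at 1889, 402, 459, 485, 142 and 83.4 CPM, and Xbp1 at 667, 122, 107, 157, 232 and 162 CPM. Without APAP mouse 1, 3 genes in place of 7 were called higher, beside 14.5% of 14208 genes in place of 17.3%. Hsp90b1 (0.78, adjusted p = 0.0816), Creld2 (0.75, adjusted p = 0.0714), Manf (0.33, adjusted p = 0.215) and Xbp1 (0.26, adjusted p = 0.157) lost their calls, and Hspa5, Sdf2l1 and Pdia4 held theirs. Against vehicle mice numbered up to 12 alone, Manf (adjusted p = 0.064) and Xbp1 (adjusted p = 0.0514) were not called after APAP. Hepatocyte markers in APAP mouse 1 summed to 89617 CPM, the highest of its group, as was its sum of stellate cell markers (527 CPM, others 226 to 339.7). APAP mice 8 and 11, whose removal changed the calls of Herpud1 and Hyou1, had 192 and 259.9 CPM of neutrophil markers against 11.1 to 35.9 in the other 4. The part of these cells in the 10 genes was not tested.

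**Figure D3:**
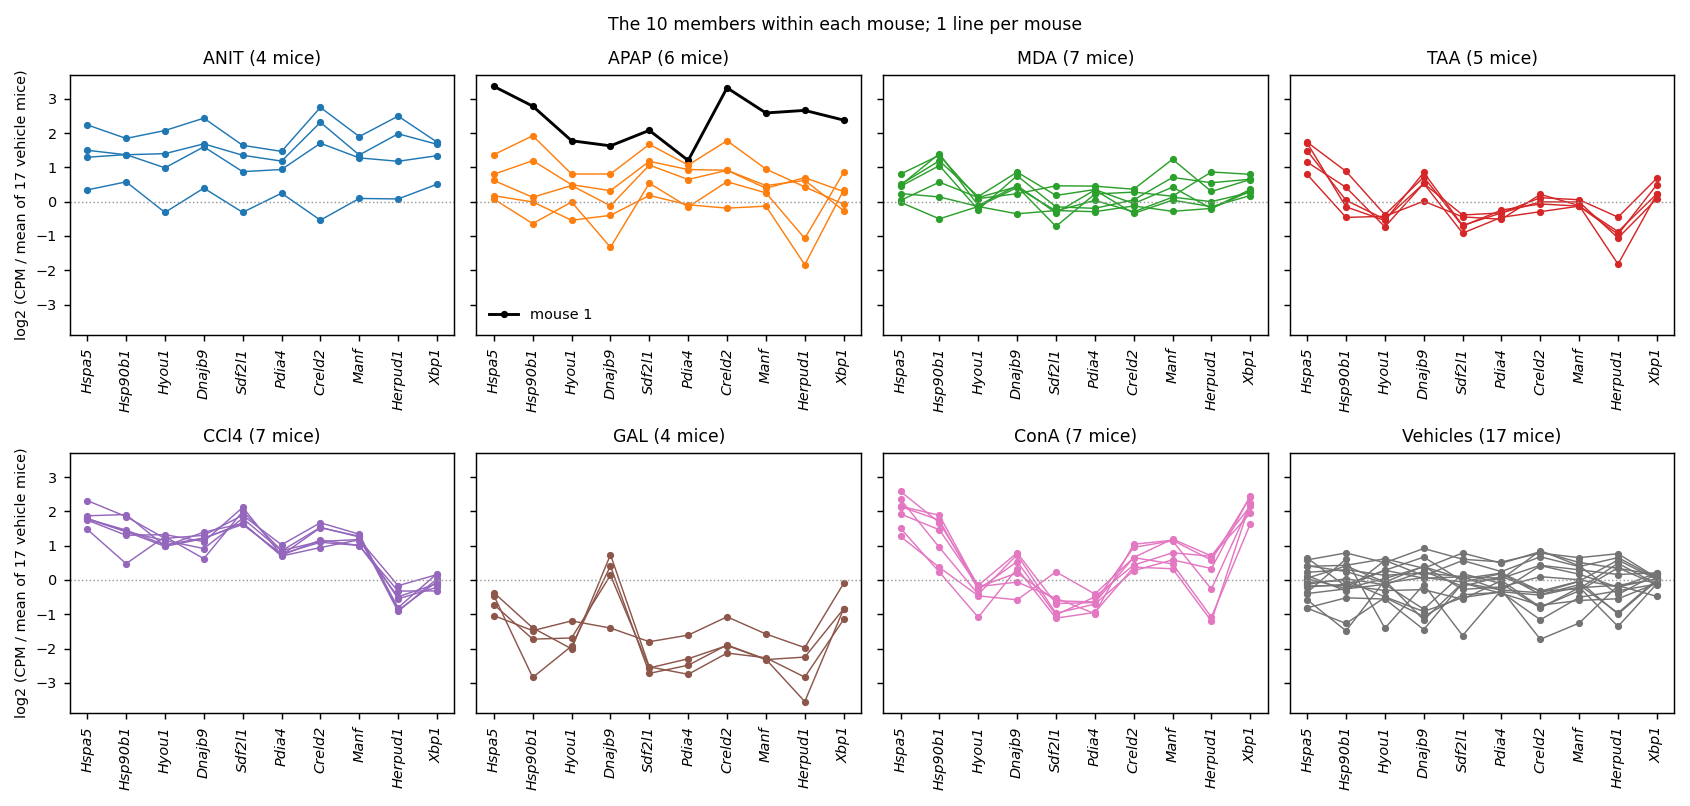
Level of each of the 10 genes relative to the mean of the 17 vehicle livers (log2, vertical axis), with 1 line per mouse and 1 panel per compound or for the vehicles. The black line of APAP mouse 1 is the highest of its group for all 10 genes, and 3 of the 4 GAL lines rise above 0 only at Dnajb9.

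The gavage mice were also compared in 2 ranges of their numbers, 1 to 4 and above 4, a division taken over from earlier work on these data. The labels do not say what the numbers stand for. In vehicle mice Hspa5 was at 356 ± 90.3 CPM (SD, n = 4) in the lower range and 316 ± 96.3 CPM (n = 9) in the upper one, which overlapped. All 4 ANIT mice fall in the lower range, while 9 of the 13 gavage vehicle mice fall in the upper one. Compound and range are thus partly mixed in the ANIT comparison. Within the lower range ANIT called 6 of the 10 genes higher, beside 6.86% of all genes. In that range APAP (3 mice) called 3 of the 10 genes higher, beside 2.93% of all genes, and within the upper range (3 mice) 1, beside 10.3%. MDA called 1 in each, beside 4.98% and 10.1% of all genes. TAA called none higher (11.2% of all genes) and 1 lower (8.26%) in the lower range, where Hspa5 gave 0.82 (adjusted p = 0.0585). In the upper range TAA called 2 higher (24.3%) and 1 lower (23.1%). Hsp90b1 after APAP turned from 1.41 in all mice to -0.13 (adjusted p = 0.842) in the upper range. Of 30 tests of the interaction between range and compound, edgeR called none, and 9 had an unadjusted p under 0.05, 8 of them in APAP. Of all genes tested, this interaction was called in 0% for APAP and for MDA and in 0.111% for TAA. APAP mouse 1 belongs to the lower range, and its part in these differences was not tested.

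Among the sensors above these genes, Atf6, which is itself cleaved to a transcription factor, was called higher after ANIT (0.95 ± 0.15), MDA (0.59 ± 0.11), CCl4 (1.31 ± 0.19) and ConA (0.91 ± 0.30). Ern1, which encodes IRE1, fell from 20.4 ± 3.59 CPM (SD, n = 13) to 12.0 ± 3.53 after APAP (n = 6) and 12.3 ± 2.93 after TAA (n = 5). Ern1 also fell from 19.1 ± 4.37 CPM (n = 2) to 8.08 ± 1.31 after ConA (n = 7), where Xbp1 was highest. Eif2ak3, which encodes PERK, was called by edgeR after none of the 7 compounds, and had an unadjusted p under 0.05 after 1 (ANIT, 0.84 ± 0.39). Atf6b was called higher after ANIT (0.55 ± 0.17).

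Of the genes of the PERK and ATF4 arm, 12 of 17 tested after ConA were called higher, beside 16.8% of all genes. The counts higher and lower were 12 and 1 of 18 after TAA (26.4% and 24% of all genes), 12 and 1 of 17 after ANIT (14% and 14.2%), and 14 and 2 of 18 after CCl4 (18% and 15.6%). APAP gave 10 and 2 of 17 (17.3% and 14.6%) and MDA 10 and 2 of 16 (17.4% and 16.4%). GAL gave 3 and 4 of 17 (12.8% and 15.7%), and 7 and 5 of 18 against all vehicles (25.1% and 27.5%). Atf4, the transcription factor of this arm, rose after 6 compounds, by 0.60 ± 0.15 (MDA) to 1.36 ± 0.16 (TAA), and GAL gave 0.12 ± 0.19. Ppp1r15a encodes GADD34, which reverses the translational block. It stood at 7.18 ± 2.20 CPM by gavage vehicle (n = 13), 139 ± 23.6 after TAA (n = 5), 69.4 ± 12.3 after CCl4 (n = 7) and 103 ± 17.6 after ConA (n = 7). The gavage vehicle is the route control of TAA only among these. Trib3, a target of ATF4 and CHOP, rose by 3.01 ± 0.19 after CCl4, 1.91 ± 0.47 after ANIT and 1.58 ± 0.39 after ConA, and fell after GAL by 0.99 ± 0.24 on the log2 scale. Ddit3, which encodes CHOP, was at 297 to 823 CPM in the 7 CCl4 livers and listed at 0 in both saline livers. Its symbol is shared by a second gene that overlaps it, so the division of reads between them is uncertain, and the more abundant gene is given.

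Other genes of the endoplasmic reticulum machinery were counted in lists, which were chosen with earlier results of these data known. After CCl4 21 of 23 genes of the translocon and signal peptidase were called higher (18% of all genes), with a median of 0.87. Srprb, a subunit of the signal recognition particle receptor, rose there from 12.7 ± 1.17 CPM (n = 2) to 47.9 ± 5.58 (n = 7). After GAL 17 of these 23 were called lower (15.7% of all genes), with a median of -1.12, and Sec61b, a subunit of the translocation channel, fell from 219 ± 3.82 CPM (n = 2) to 45.3 ± 7.55 (n = 4). GAL also lowered 11 of 15 disulfide isomerases and oxidases and 9 of 12 lectin chaperones and quality control genes, and raised none of either by edgeR (0 at an unadjusted p under 0.05). Pdia5, a disulfide isomerase, fell after GAL by 2.82 ± 0.47 on the log2 scale.

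Of the genes of endoplasmic reticulum associated degradation, 16 of 23 were called higher after ANIT and 1 lower (14% and 14.2% of all genes). Derl3, a derlin of the degradation channel, rose by 3.54 ± 0.50 after ANIT, 4.25 ± 0.78 after APAP, 4.87 ± 0.27 after CCl4 and 3.78 ± 0.58 after ConA. These differences are against the route vehicle. Against all 17 vehicles no gene of this list rose by more than 1.29 after ConA or 3.39 after CCl4, Derl3 included. Derl3 also stood in the plasma cell marker list, which summed to 258 CPM with it and 9.63 CPM without it in APAP mouse 1. Without Derl3 the list summed to 10.4 to 23.9 CPM in gavage vehicle livers, 15.3 and 16.8 CPM in intravenous saline livers and 27.5 to 45.6 CPM in the 7 ConA livers, above both of these groups. The intraperitoneal saline livers, at 24.0 and 35.4 CPM, overlapped the ConA range. The TAA livers had 24.9 to 31.6 CPM, above the gavage vehicles, and APAP livers 9.63 to 32.6 CPM. The part of these cells in these levels, Xbp1 included, was not tested. After TAA 8 of these 23 were called lower and 4 higher, beside 24% and 26.4% of all genes, and Sel1l, the adaptor of the degradation ligase, fell by 1.17 ± 0.14 on the log2 scale. TAA also lowered 7 of 12 lectin chaperones and quality control genes.

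Ero1a, an oxidase that recharges disulfide isomerases, rose by 4.86 ± 0.39 after ConA, from 9.67 ± 3.11 CPM (n = 2) to 279.7 ± 63.0 (n = 7), and by 2.46 ± 0.35 after TAA. In the same ConA livers Pdia4 lay below all 17 vehicles (-0.60). After TAA Pdia4 gave -0.34 against all vehicles, with 2 of 5 livers below the lowest vehicle, a call lost without any 1 of the 5 TAA mice (adjusted p = 0.0576 to 0.113). Neutrophil markers (6 of 6 in the table) summed to 126 to 287 CPM after ConA and 155 to 807 CPM after TAA, against 0.714 to 49.6 CPM in the gavage vehicle group. The 2 intravenous saline livers had 5.83 and 6.11 CPM. Kupffer cell markers (5 of 5) summed to 24.2 to 49.5 CPM after ConA, against 153 to 431 CPM by gavage vehicle and 276 and 267 CPM by intravenous saline. After ConA sinusoidal endothelial markers summed to 55.4 to 108 CPM (104 to 189 in the 17 vehicles), stellate cell markers to 345 to 562 CPM (149.5 to 341) and cholangiocyte markers to 91.6 to 204 CPM (23.1 to 103). The part of these cells in the levels above was not tested.

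The cytosolic heat shock genes, which answer unfolded proteins outside the endoplasmic reticulum, had other counts. After GAL 11 of 16 were called higher (12.8% of all genes) while 7 of the 10 chaperones were lower. After TAA 12 of 16 (26.4% of all genes) and after CCl4 13 of 16 (18%) were called higher. ANIT gave 4 of 16 higher (14%), APAP 4 higher and 1 lower (17.3% and 14.6%), and MDA 1 lower (16.4%). ConA gave 2 higher against its 2 controls (16.8%), and 12 higher and 1 lower against all 17 vehicles (34.3% and 33.7%). Hspa1a, the inducible cytosolic Hsp70, rose by 4.27 ± 0.28 after TAA, 3.01 ± 0.67 after GAL and 2.74 ± 0.56 after APAP. Hspa8, the constitutive form, stood at 650.0 ± 148 CPM in intraperitoneal saline livers (n = 2) and 2687 ± 433 after CCl4 (n = 7).

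**Figure D4:**
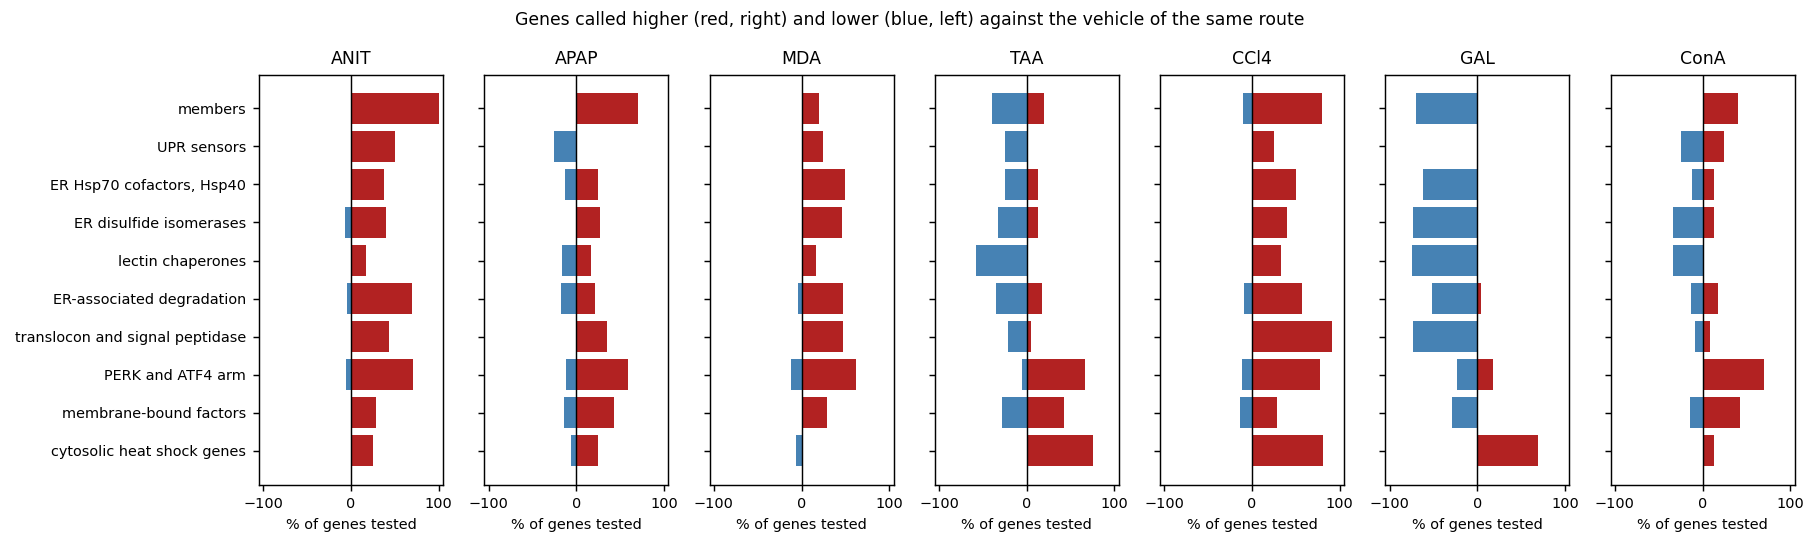
Share of the tested genes of each list called higher (right) and lower (left) after each compound against its route vehicle. GAL is the compound with most of the endoplasmic reticulum lists on the lower side while 11 of 16 cytosolic heat shock genes are on the higher side.

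The genes whose profile over the 57 livers lay nearest to Hspa5 were found by the root mean square difference of centred log2(CPM + 1), among the 12370 genes whose mean reached 1 CPM. They were Ung (0.53), Lrrc59 (0.56), Ibtk, Eif4ebp1, Arl4a, Lrrfip2, Slc38a2 and Nktr (0.64). Of the other 9 genes described here, Manf ranked 9 and Hsp90b1 17. Creld2 ranked 54, Dnajb9 64, Xbp1 266 and Hyou1 964. Pdia4 (2954), Sdf2l1 (4753) and Herpud1 (6575) lay far down the order.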

How the data were processed

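Liver RNA of 57 mice was sequenced from stranded poly(A) libraries, per the labels' protocols. The authors deposited 1 table of estimated counts per gene, and the submitters' processing notes name Salmon 1.6.0, R 4.1.3 and GRCm39 without their roles. Which annotation was used, and whether strand was, is not given in the sources used here. Over 11676 genes that have 1 transcript, longer transcripts had lower minimum nonzero values (Spearman -0.942, genes not being independent), so the values look corrected for length, and no counting intervals were computed. Symbols came from GENCODE M21 names (51482 of 54307 IDs).

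Estimated counts were rounded and tested with edgeR 4.0.16 (limma 3.58.1, R 4.3.3): TMM scaling, filterByExpr, the two-sided quasi-likelihood test of each compound with its controls, no covariates, and Benjamini-Hochberg adjustment over all genes tested, called under 0.05. All 10 genes are named in every comparison. Of the other lists, the called genes with the largest rise and fall and 10 fixed genes could be named. Genes, lists and ratios were chosen with earlier results of these data known. Same-numbered mice were checked for pairing by the correlation of their deviations from group means. No comparison with 2 or more shared numbers had every pair over 0.1, so the numbers were not taken to pair mice. Alternatives were DESeq2 1.42.0, limma on log2(CPM + 1), other scaling and filters, other controls, number ranges, a replicate block and leaving out each mouse. On simulated counts with 100 genes changed per size, the test recovered 71 genes changed by 1 and 97 changed by 2 (log2) for ANIT (13642 genes), and 13 and 82 for CCl4 with its 2 controls (14083 genes). The changed genes were drawn from the better expressed ones and were far fewer than the genes called in the data. The recovered shares therefore do not measure the power of the comparisons above.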

Additional observations from a re-analysis of the deposited data

Results flagged for a closer look

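The highest and lowest mouse of each group of 4 to 10 was compared with the others by Dixon's gap test for each of the 10 genes, 70 tests in all. Chance alone marks about 1 in 20 such groups. APAP mouse 1 stood above the other 5 APAP mice in 5 genes: Hspa5 at 3164 CPM (others 324 to 796), Herpud1 at 1889 CPM (others 83.4 to 485), Creld2 at 553 CPM (others 48.7 to 190.2), Manf at 774 CPM (others 118 to 249) and Xbp1 at 667 CPM (others 107 to 232). CCl4 mouse 1 stood above its group in Hspa5 at 1532 CPM (others 857 to 1126). GAL mouse 2 was the highest GAL mouse in Sdf2l1 at 13.2 CPM (others 6.98 to 7.96), Creld2 at 26.3 CPM (others 12.6 to 14.9) and Manf at 43.2 CPM (others 25.8 to 26.7), and still below every vehicle liver in Sdf2l1 and Manf. ConA mouse 12 was high in Sdf2l1 at 54.4 CPM (others 21.3 to 31.9), and ConA mouse 11 was low in Hyou1 at 41.2 CPM (others 63.7 to 78.6).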

How the results depend on the processing

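Counts of the 10 genes called were within 1.5 times their values, except as follows. With a replicate block, which the pairing check did not support, ANIT called 2 higher (3.27% of all genes), APAP 0 (0.696%), MDA 0 (8.94%) and TAA 1 (18.3%). Same-numbered deviations correlated over 0.1 in some pairs only (TAA 0.277, 0.114, 0.154 and 0.0077). No paired analysis was possible for CCl4 and ConA because each shares only 1 number with its saline group (r -0.15 and 0.13). In mice numbered 1 to 4 the counts higher were ANIT 6 (6.86%), APAP 3, MDA 1 and TAA 0, with 1 lower for TAA. In mice numbered above 4 they were APAP 1 and MDA 1, with 1 lower for TAA. In the fit over 10 groups MDA called 1 higher (12.7%), TAA 1 higher and 2 lower (22.1% and 19%), and CCl4 0 lower (11%). On log2(CPM + 1), limma called 4 higher after APAP (15%). Scaling by library total moved the median of all genes to -0.23 (ANIT), 0.22 (APAP), 0.53 (CCl4), 0.84 (GAL) and -0.56 (ConA), and called 0 lower after CCl4 with route controls and all vehicles (7.16% and 12.2%). Against all vehicles it also called 1 lower after TAA (21.9%), 1 higher after GAL (54.7%) and 3 higher after ConA (17%), and between neighbouring groups 15 steps in place of 9. Against vehicle mice numbered up to 12 alone, APAP called 5 of the 10 higher (16.2%), without Manf and Xbp1, and the other 38 of 40 values with gavage vehicles stayed on their side of the threshold. ConA against all 17 vehicles had 2 lower in place of 0. Where a value was called in either setting, directions turned 5 times: for Hsp90b1 after APAP in mice above 4 (-0.13), for Sdf2l1 after ConA with all vehicles (-0.52) and, scaled by library total against all vehicles, for Xbp1 after CCl4 (0.47) and Hspa5 (0.17) and Xbp1 (0.11) after GAL. Another 30 values, called in neither setting, changed sign. The cause was not tested. Leaving out 1 mouse at a time, with the route vehicle, gave 8 to 10 higher for ANIT, 3 to 9 for APAP, 2 to 2 for MDA and TAA, 6 to 8 for CCl4 and 4 to 5 for ConA, and 2 to 4 lower for TAA, 0 to 1 for CCl4 and 5 to 8 for GAL. With all vehicles it gave 4 to 9 higher for APAP and, lower, 1 to 2 for TAA and ConA and 0 to 1 for CCl4. Where leaving out 1 treated mouse moved a count by over 1.5 times, the share of all genes called is given next. It was 14.5% higher for APAP and 21.3% and 22.9% lower for TAA with the route vehicle. With all vehicles it was 14.4% higher for APAP and, lower, 21.1% to 22.7% for TAA, 25.2% to 26.7% for CCl4 and 32.9% to 33.6% for ConA. DESeq2 kept the call in 138 of 140 results, DESeq2's size factors in edgeR in 70 of 70. With only 2 saline mice per route, differences from these groups are the least precise.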
